A study of Homo sapiens with 12 samples.

Results

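The 33 genes described here are targets of p53, a tumour suppressor protein. They were taken by gene symbol from a table of 58735 human genes, and all 33 were found in it. The list was made up of well-known targets, and its rule uses gene names and no measured value, though it was drawn up with earlier results of these data known. Of the 33 genes, 30 passed the filter on low values, a mean of at least 0.5 FPKM (fragments scaled to the length of the gene and to the size of the library) over all 12 libraries, and were tested along with 15856 genes in all. PERP, TIGAR and SPATA18 did not pass it and are given by their levels only.

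p53 is a transcription factor that is held low in unstressed cells, mainly by the ubiquitin ligase MDM2, and that accumulates after DNA damage and other stress. It binds a palindromic DNA motif near its target genes and raises their transcription, which can stop the cell cycle, start apoptosis, aid DNA repair and, through MDM2 and others, limit p53 itself.

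The study sequenced RNA of 2 lines of neuroblastoma, a childhood tumour that arises from sympathetic precursor cells, in 4 groups of 3 libraries each, and its title asks about stem cell traits and a modification of p53 through G3BP1 and RanBP2. In both lines the titles shL5 mark cells labelled as a knockdown of TSPYL5, a protein of the TSPY and NAP family, and shNC marks control cells whose genotype label is wild type (WT). All groups were labelled as untreated, so no DNA-damaging agent was given to any of them according to the labels. The first line is SK-N-SH in every label, while the second, called the second line here, is SK_N_BE2 by its titles but SH-SY5Y by its source and cell line labels. As background, SH-SY5Y was subcloned from SK-N-SH and neither has an amplified MYCN gene, whereas SK-N-BE2 is a MYCN-amplified line. The groups are the SK-N-SH shL5 libraries, the SK-N-SH shNC libraries, the second line shL5 libraries and the second line shNC libraries. The sources used here do not say whether a line is a clone, which hairpin sequences were used, or whether replicates are separate cultures, so a p-value here measures no more than the spread among these libraries, and that spread may be technical. In such bulk samples, fewer cells of a kind and less RNA per cell cannot be told apart.

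Several libraries went against their labels. TSPYL5 itself stood at 17.1, 18.3 and 17.8 FPKM in the libraries labelled SK-N-SH shL5, against 13.1, 13.4 and 12.2 FPKM in those labelled SK-N-SH shNC, so the targeted gene was higher in the libraries labelled as its knockdown. Second line libraries had 13.3, 12.4 and 12.6 FPKM in shL5 and 24.0, 24.4 and 25.8 FPKM in shNC. SK-N-SH shL5 and second line shNC libraries correlated at 0.986 to 0.987 (Pearson, log2(FPKM + 1), across the 15856 tested genes, which do not count as replicates). Second line shL5 and SK-N-SH shNC libraries correlated at 0.960 to 0.975, whereas the range between shL5 and shNC libraries was 0.705 to 0.724 for SK-N-SH and 0.692 to 0.721 for the second line. MYCN stood at 988, 1013 and 1082 FPKM in SK-N-SH shL5 and at no more than 0.0813 FPKM in SK-N-SH shNC, and it had 0 reads in second line shL5, against 1043, 1072 and 1006 FPKM in second line shNC. Markers of the noradrenergic, neuroblast-like state summed to 1601 to 1683 FPKM in SK-N-SH shL5, 49.7 to 51.7 in SK-N-SH shNC, 33.5 to 36.6 in second line shL5 and 1692 to 1742 in second line shNC, over 12 genes. The sum of the 12 mesenchymal markers ran the other way, at 129.9 to 136.6, 3088 to 3544, 2597 to 3130 and 113.4 to 121.8 FPKM in the same order of groups. Not every marker did so, as 1 of the 12 did not pass the test given below within SK-N-SH. The summed markers of other cells (epithelial, Schwann, endothelial with blood) reached at most 2.75 FPKM in any library. Every group is therefore named by its label only. Within a labelled line the hairpin and every other difference between its libraries, cell state and MYCN included, cannot be told apart, and the part of each in the results was not tested.

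The genes share more than a name, since p53 is known to bind near many of them. RefSeq promoter windows on GRCh38.p14, 250 bases before to 50 bases after a start site, could be matched for 26 of the 33 genes. They were searched for pairs of the p53 consensus decamer, a motif of 10 bases that is its own reverse complement, so that a single scan covers both strands. At most 1 base could stand between the decamers, and the central C and G of each were kept. With no mismatch, 0.0199% of all 35116 windows held such a pair and DDB2 was the only one of the 26 genes among them. With at most 2 mismatches the pair stood in 0.674% of all genes with a window and in 4 of the 26 genes. The 4 are shown because they belong to different roles in the results below. Capitals mark the paired decamers and, in DDB2 only, the 1 base between them. Each is printed 5′ to 3′ on the plus strand.
DDB2, chr11:47214979-47214999, exon and UTR: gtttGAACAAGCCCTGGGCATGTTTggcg
AEN, chr15:88621306-88621325, exon and UTR: agccGGGCTTGCCCGGGCATGTGGgagc
FAS, chr10:88991309-88991328, intron: tcctGGACAAGCCCTGACAAGCCAagcc
MDM2, chr12:68808923-68808942, intron: agctGGTCAAGTTCAGACACGTTCcgaa
With at most 3 mismatches the pair stood in 2.91% of all genes and in 8 of the 26, the further 4 being FDXR, GDF15, PMAIP1 and SESN1. A match is a description of letters in a window and not a binding site, and a window without one says nothing about p53. Only the best pair of a window is marked, and decamers without the central C and G were not sought. The capitals therefore need not cover every p53 element of a printed sequence. The MDM2 promoter within the gene, chr12:68808767-68809001 on the plus strand, is printed at greater length because it is the classic feedback promoter of p53, and its pair is again in capitals:
MDM2 promoter: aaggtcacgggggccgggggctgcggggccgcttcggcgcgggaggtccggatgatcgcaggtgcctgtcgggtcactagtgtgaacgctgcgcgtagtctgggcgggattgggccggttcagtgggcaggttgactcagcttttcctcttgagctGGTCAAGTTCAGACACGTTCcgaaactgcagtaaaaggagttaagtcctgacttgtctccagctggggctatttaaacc

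In SK-N-SH, the comparison asked how the targets differ between libraries labelled as a TSPYL5 knockdown and libraries labelled as control. Most p53 targets were lower in the libraries labelled shL5: of the 30 tested genes 26 fell, PPM1D alone rose, and TP53I3, FBXO22 and AEN did not pass (limma, Benjamini-Hochberg adjusted p under 0.05 over all tested genes). Of all 15856 genes, 39.0% were called lower and 40.7% higher. The median log2 fold of the 30 genes was -1.86, against 0.02 over all tested genes. On the log2(FPKM + 1) scale, 21 of the 30 were called and at least 2-fold apart, as were 31.1% of all tested genes. In the second line the targets ran in the opposite direction: 27 of the 30 rose in the libraries labelled shL5, PPM1D alone fell, and TP53I3 and FBXO22 did not pass. There 39.9% of all genes were called higher and 40.2% lower. The median log2 fold of the 30 genes was 1.49, against -0.02 over all tested genes. On the same scale, 21 of the 30 were called and at least 2-fold apart, as were 31.7% of all tested genes. Passing the filter can depend on the group in which a gene was high, so these counts describe the 30 genes that passed and not all 33.

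**Figure D1:**
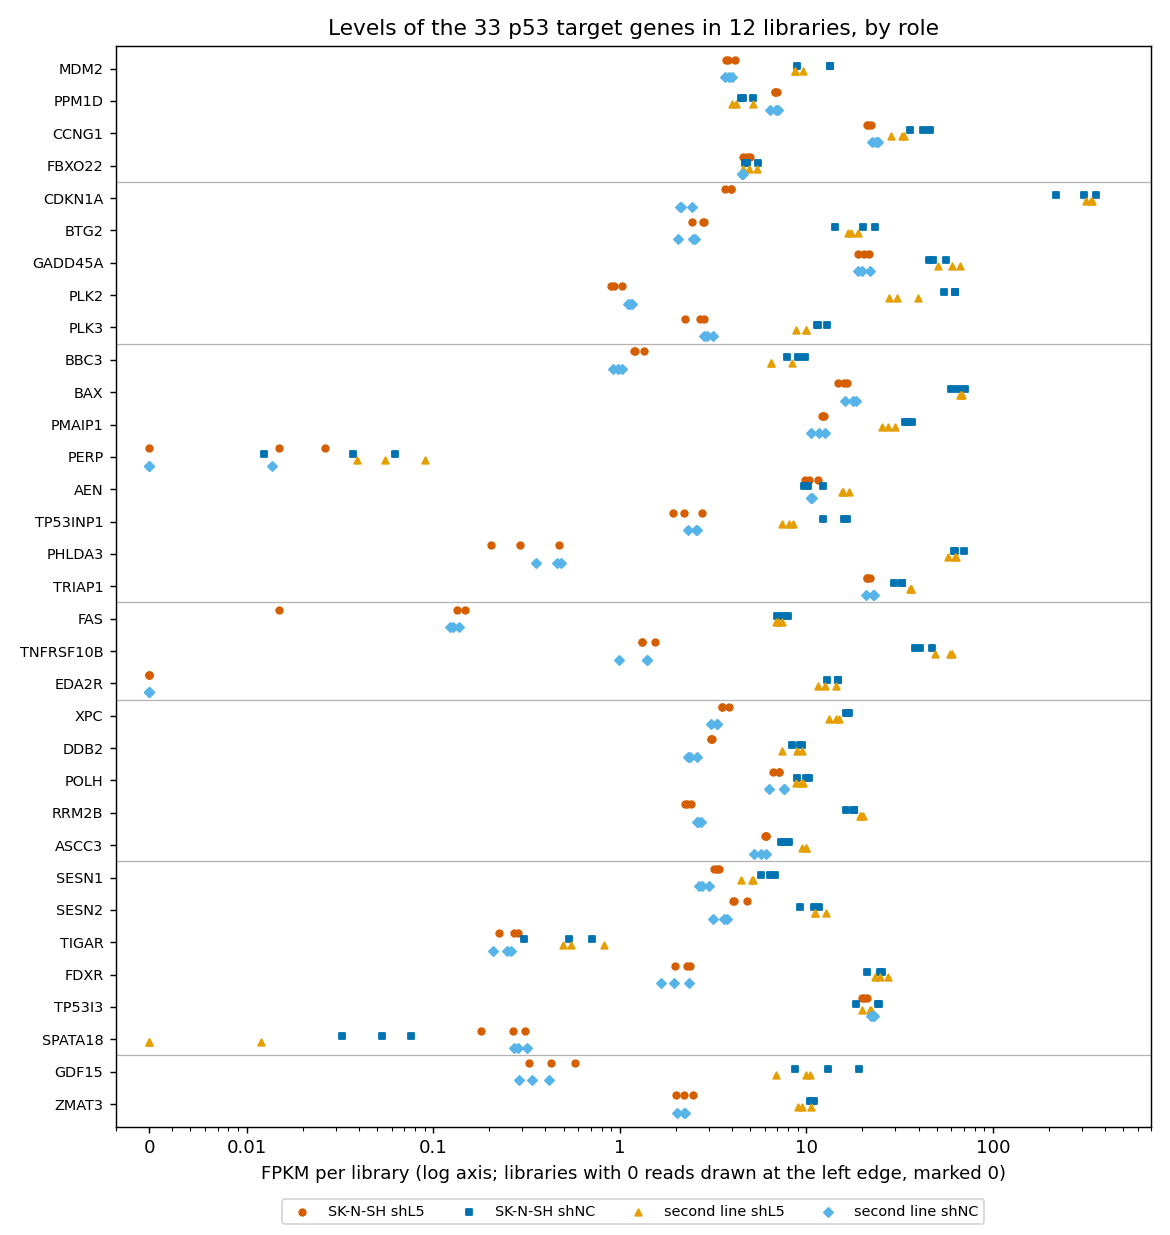
FPKM of each of the 33 genes in all 12 libraries on a log axis, 1 point per library, with rules between the roles. For most genes the SK-N-SH shL5 and second line shNC points lie together at the low end and the SK-N-SH shNC and second line shL5 points together at the high end. PPM1D and SPATA18 lie the other way round. The points of TP53I3, FBXO22 and PERP overlap, and in AEN only those of second line shL5 stand apart.

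**Figure D2:**
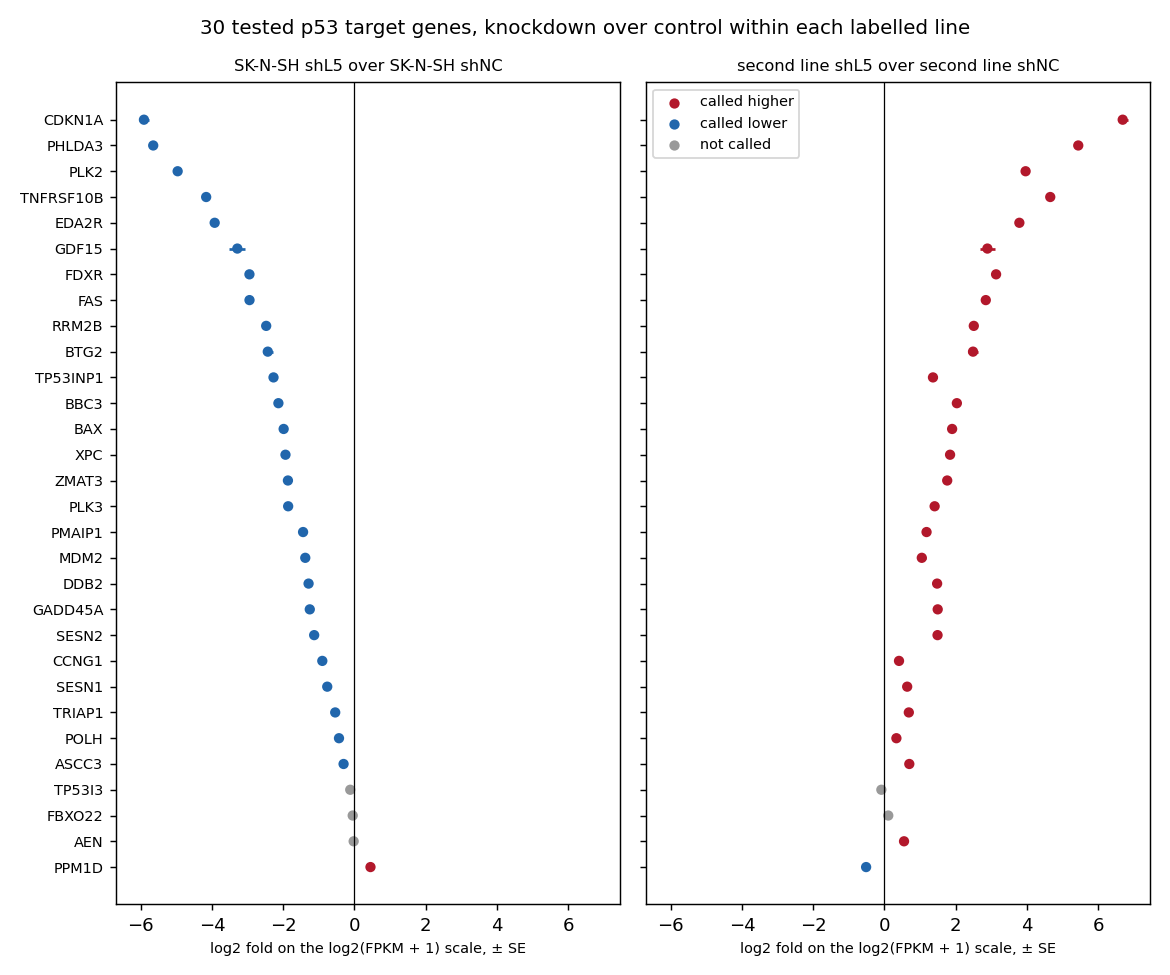
Log2 fold of shL5 over shNC on the log2(FPKM + 1) scale, with its standard error, for the 30 tested genes in SK-N-SH (left) and in the second line (right). CDKN1A stands at -5.91 in SK-N-SH and at 6.69 in the second line, and PPM1D at 0.45 and -0.52.

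The cell cycle genes held the largest difference on the log2(FPKM + 1) scale, that of CDKN1A. CDKN1A, which encodes the cyclin-dependent kinase inhibitor p21 (chromosome 6, 36676460 to 36687339, plus strand, GRCh38), stood at 3.65, 3.94 and 3.93 FPKM in SK-N-SH shL5, against 218, 358 and 309.8 FPKM in SK-N-SH shNC. In the second line it stood at 318, 339 and 338 FPKM in shL5, against 2.44, 2.11 and 2.14 FPKM in shNC. The groups lay far apart, and the shL5 mean was 76.9-fold lower in SK-N-SH (log2 fold -5.91, SE 0.14, limma adjusted p = 5.67e-12) and 149-fold higher in the second line (6.69, SE 0.14, adjusted p = 1.90e-12). Of all tested genes in the second line, CDKN1A stood at percentile 99.9 of the log2 folds. PLK2, a polo-like kinase of stressed cells, stood at 0.893, 1.02 and 0.935 FPKM in SK-N-SH shL5, against 62.6, 54.6 and 62.4 in shNC. Its level was 39.7, 27.8 and 30.7 FPKM in second line shL5, against 1.17, 1.14 and 1.11 FPKM in shNC. The low and high groups of PLK2 did not overlap, and its mean was 62.9-fold lower in SK-N-SH shL5 and 28.7-fold higher in second line shL5. BTG2, an antiproliferative cofactor of mRNA deadenylation, was lower in SK-N-SH shL5 at 2.80, 2.44 and 2.82 FPKM, against 14.3, 23.2 and 20.1 in shNC, and higher in second line shL5 at 16.8, 17.5 and 19.0, against 2.06, 2.49 and 2.52 in shNC. The kinase gene PLK3 had 2.25, 2.83 and 2.69 FPKM in SK-N-SH shL5, against 11.4, 12.98 and 11.6 in shNC, and 8.84, 10.002 and 9.91 in second line shL5, against 3.18, 2.83 and 2.95 in shNC. GADD45A, a stress sensor that acts in growth arrest, was expressed in every library and changed least of these genes in SK-N-SH, by -1.25 on the log2 scale. It stood at 18.9, 20.4 and 21.7 FPKM in SK-N-SH shL5, against 45.7, 56.1 and 48.1 in shNC, and at 50.8, 66.6 and 60.7 in second line shL5, against 20.01, 21.97 and 18.99 in shNC. All 5 cell cycle genes passed the test in both lines, lower in SK-N-SH shL5 and higher in second line shL5. Of all tested genes, 39.0% were called lower in SK-N-SH shL5 and 39.9% higher in second line shL5.

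Among the genes of apoptosis, 6 of the 7 tested fell in SK-N-SH shL5, against 39.0% of all tested genes. In second line shL5 7 of 7 rose, against 39.9% of all tested genes. PHLDA3, a repressor of AKT signalling, changed most. It stood at 0.470, 0.293 and 0.203 FPKM in SK-N-SH shL5, against 62.1, 70.4 and 62.9 in shNC, which is 202-fold lower (log2 fold -5.65, SE 0.08, limma adjusted p = 7.98e-14). In second line shL5 it stood at 57.8, 62.6 and 63.2 FPKM, against 0.354, 0.485 and 0.462 in shNC, 141-fold higher (5.44, SE 0.08, adjusted p = 9.97e-14). The low values of PHLDA3 rest on 52 reads in SK-N-SH shL5 and 69 in second line shNC, each over 3 libraries. The BH3-only genes BBC3 (PUMA) and PMAIP1 (NOXA) and their effector BAX moved by smaller factors. BBC3 had 1.36, 1.19 and 1.20 FPKM in SK-N-SH shL5, against 7.85, 9.81 and 9.03 in shNC, and 6.47, 6.49 and 8.39 in second line shL5, against 0.975, 0.921 and 1.02 in shNC. PMAIP1 was never below 10.6 FPKM, with 12.5, 12.3 and 12.2 in SK-N-SH shL5, against 35.2, 33.6 and 36.8 in shNC, and 27.4, 25.5 and 30.03 in second line shL5, against 11.7, 12.7 and 10.6 in shNC. BAX had 16.0, 14.8 and 16.5 FPKM in SK-N-SH shL5, against 59.8, 71.0 and 65.4 in shNC. In the second line BAX had 67.7, 68.0 and 67.0 FPKM in shL5 and 18.4, 17.7 and 16.1 in shNC, so its log2 folds were -1.99 and 1.90 (SE 0.07 each). The cell death and autophagy gene TP53INP1 had 2.75, 2.22 and 1.92 FPKM in SK-N-SH shL5, against 12.3, 16.5 and 16.0 in shNC, and 8.46, 7.39 and 8.08 in second line shL5, against 2.56, 2.32 and 2.59 in shNC. TRIAP1, an inhibitor of apoptosis, moved with the genes that promote it, by -0.54 in SK-N-SH and 0.68 in the second line on the log2 scale. AEN, a nuclease of apoptosis, was called in the second line only, at 16.1 ± 0.687 FPKM in shL5 and 10.6 ± 0.0592 in shNC (SD, n = 3 each; log2 fold 0.55, limma adjusted p = 4.89e-05). In SK-N-SH AEN stood at 10.6 ± 0.901 in shL5 and 10.8 ± 1.37 in shNC, and the difference of these effects between lines was 0.57 (SE 0.11, limma adjusted p = 0.000509). PERP, a membrane protein of cell junctions and apoptosis, was near the limit of reading with 3, 9, 14 and 1 reads in SK-N-SH shL5, SK-N-SH shNC, second line shL5 and second line shNC, each over 3 libraries.

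All 3 death receptor genes were high in SK-N-SH shNC and second line shL5 and low or at zero in the other groups. Over all tested genes, 39.0% were called lower in SK-N-SH shL5 and 39.9% higher in second line shL5. EDA2R, a receptor for an ectodysplasin ligand on the X chromosome, had 0 reads in all 3 SK-N-SH shL5 libraries, against 12.97, 14.8 and 14.8 FPKM in SK-N-SH shNC. It stood at 11.6, 12.5 and 14.4 FPKM in second line shL5, against 0 reads in all 3 second line shNC libraries. With a floor of 3 reads over the unread group, which covers counting error only, EDA2R was at least 857.5-fold lower in SK-N-SH shL5 and at least 777.9-fold higher in second line shL5. FAS, which binds FAS ligand, had 0.134, 0.149 and 0.0150 FPKM in SK-N-SH shL5, against 7.46, 7.95 and 6.96 in shNC. In second line shL5 FAS had 7.06, 6.90 and 7.39 FPKM, against 0.124, 0.138 and 0.128 in shNC. The low values rest on 22 reads over the 3 SK-N-SH shL5 libraries and 28 over the 3 second line shNC libraries. FAS overlaps ACTA2 on the opposite strand (chromosome 10, 88990582 to 88991339), whose level moved with it, at 2.09 ± 0.166 FPKM in SK-N-SH shL5, 28.3 ± 7.39 in SK-N-SH shNC, 30.4 ± 3.35 in second line shL5 and 2.88 ± 0.202 in second line shNC. No source used here says whether reads were counted by strand, so those of the overlap cannot be told apart. TNFRSF10B, a receptor for the death ligand TRAIL, was more abundant, with 1.32, 1.55 and 1.32 FPKM in SK-N-SH shL5, against 38.1, 47.0 and 40.9 in shNC. It had 48.9, 59.2 and 60.3 FPKM in second line shL5, against 1.41, 1.41 and 0.995 in shNC, and its folds were 30.05-fold lower and 44.2-fold higher in shL5.

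All 5 genes of DNA repair and nucleotide supply passed the test in both lines, down in SK-N-SH shL5 and up in second line shL5. The shares over all tested genes were 39.0% lower in SK-N-SH shL5 and 39.9% higher in second line shL5. RRM2B, the p53-inducible subunit of ribonucleotide reductase, had 2.24, 2.41 and 2.30 FPKM in SK-N-SH shL5, against 16.3, 17.9 and 18.1 in shNC. It had 19.3, 20.2 and 19.7 FPKM in second line shL5, against 2.73, 2.62 and 2.60 in shNC, so the folds in the lines were close in size, 7.54-fold lower and 7.46-fold higher. The damage sensors of nucleotide excision repair followed. XPC had 3.54, 3.52 and 3.85 FPKM in SK-N-SH shL5, against 16.8, 16.3 and 17.0 in shNC, and 15.0, 13.2 and 14.5 in second line shL5, against 3.32, 3.33 and 3.08 in shNC. DDB2, whose promoter holds the pair of decamers without a mismatch, had 3.10, 3.12 and 3.10 FPKM in SK-N-SH shL5, against 8.39, 9.22 and 9.44 in shNC, and 9.51, 8.89 and 7.41 in second line shL5, against 2.59, 2.39 and 2.32 in shNC. That is 2.90-fold lower in SK-N-SH shL5 and 3.53-fold higher in second line shL5, where its log2 fold of 1.48 was close to the median of the 30 genes. POLH, the polymerase that copies past ultraviolet lesions, and the helicase gene ASCC3 changed least, by -0.43 and -0.30 in SK-N-SH and by 0.34 and 0.70 in the second line on the log2 scale. POLH overlaps GTPBP2 on the opposite strand, which stood at 13.9 ± 0.925 FPKM in SK-N-SH shL5, 17.5 ± 0.588 in SK-N-SH shNC, 17.5 ± 0.493 in second line shL5 and 13.9 ± 0.658 in second line shNC, above POLH itself.

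The genes of metabolism were split. FDXR, the ferredoxin reductase of mitochondria, had 2.30, 2.38 and 1.98 FPKM in SK-N-SH shL5, against 21.2, 25.6 and 24.8 in shNC, 10.7-fold lower. It had 27.6, 24.7 and 23.3 FPKM in second line shL5, against 1.66, 2.36 and 1.96 in shNC, 12.6-fold higher. The sestrins, which restrain mTORC1, changed less: SESN2 had 4.09, 4.05 and 4.80 FPKM in SK-N-SH shL5, against 9.25, 11.7 and 10.96 in shNC, and 11.2, 11.2 and 12.8 in second line shL5, against 3.78, 3.17 and 3.62 in shNC. SESN1 differed by -0.76 and 0.64 on the log2 scale in the lines. TP53I3, a quinone oxidoreductase and a widely used p53 target, stood at 20.51 ± 0.532 FPKM in SK-N-SH shL5, 22.5 ± 3.42 in SK-N-SH shNC, 21.3 ± 1.22 in second line shL5 and 22.7 ± 0.539 in second line shNC, and passed the test in neither line (limma adjusted p = 0.251 and 0.384). Without SK-N-SH shNC replicate 1 it passed in SK-N-SH, at a log2 fold of -0.24 (limma adjusted p = 0.00157). Scaled to total reads it passed in the second line, also at -0.24 (limma adjusted p = 0.0359). TIGAR, a sugar phosphatase that slows glycolysis, was low throughout, at 0.261 ± 0.0311 FPKM in SK-N-SH shL5, 0.517 ± 0.202 in SK-N-SH shNC, 0.621 ± 0.174 in second line shL5 and 0.240 ± 0.0268 in second line shNC. SPATA18, which acts in mitochondrial quality control, lay the other way round from most of the list, as PPM1D did, with 64 reads in SK-N-SH shL5, 15 in SK-N-SH shNC, 1 in second line shL5 and 73 in second line shNC. TIGAR and SPATA18 were not tested.

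GDF15, a secreted stress hormone of the TGF-beta family, and ZMAT3, an RNA-binding zinc finger protein that shapes splicing, were both called in both lines. Both were lower in SK-N-SH shL5, against 39.0% of all tested genes, and higher in second line shL5, against 39.9%. GDF15 had 0.326, 0.578 and 0.427 FPKM in SK-N-SH shL5, against 8.74, 19.3 and 13.02 in shNC, and 6.91, 9.98 and 10.5 in second line shL5, against 0.420, 0.337 and 0.289 in shNC. Its groups did not overlap within a line, but it varied 2.21-fold between SK-N-SH shNC libraries, the most of any tested gene of the list in that group. ZMAT3 had 2.47, 1.996 and 2.21 FPKM in SK-N-SH shL5, against 10.4, 10.7 and 11.1 in shNC, and 8.997, 9.53 and 10.7 in second line shL5, against 2.25, 2.02 and 2.21 in shNC.

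The 4 genes that feed back on p53 had the smallest median log2 folds of all roles, -0.47 in SK-N-SH and 0.26 in the second line, and did not move together. MDM2, the ubiquitin ligase that marks p53 for degradation, had 4.16, 3.83 and 3.69 FPKM in SK-N-SH shL5, against 8.97, 13.3 and 13.4 in shNC, 3.05-fold lower (log2 fold -1.38, SE 0.12, limma adjusted p = 5.38e-07). It had 8.66, 8.68 and 9.60 FPKM in second line shL5, against 3.98, 3.66 and 3.83 in shNC, 2.35-fold higher. MDM2 overlaps CPM on the opposite strand, which was at 0.00502 ± 0.00870 FPKM in SK-N-SH shL5, 6.65 ± 0.761 in SK-N-SH shNC, 3.79 ± 0.155 in second line shL5 and 0.00518 ± 0.00448 in second line shNC, and so moved with it. CCNG1, cyclin G1, which recruits a phosphatase to MDM2, stood at 21.6 ± 0.611 FPKM in SK-N-SH shL5 and 41.5 ± 5.14 in shNC, and at 31.5 ± 2.68 in second line shL5 and 23.4 ± 0.934 in shNC (SD, n = 3 each). PPM1D, the phosphatase that switches off p53 signalling, was the exception in direction, higher in SK-N-SH shL5 at 6.85 ± 0.102 FPKM, against 4.74 ± 0.389 in shNC (limma adjusted p = 0.000187), and lower in second line shL5 at 4.46 ± 0.613, against 6.77 ± 0.311 in shNC (limma adjusted p = 6.41e-05). FBXO22, a ubiquitin ligase subunit that acts on methylated p53, stood between 4.51 and 5.50 FPKM in all 12 libraries and was not called in either line.

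The opposite effects in the lines were also tested as a difference, on the same libraries as the folds within the lines. Because the groups resembled each other across the labels, a gene with opposite folds within the lines would largely pass here too. The test is therefore no separate support. The difference of the log2 folds, second line minus SK-N-SH, passed the test in 28 of the 30 genes, against 84.9% of all tested genes, with 27 more positive in the second line and PPM1D more negative, against 41.8% of all tested genes more positive and 43.1% more negative. FBXO22 (0.15, limma adjusted p = 0.148) and TP53I3 (0.03, limma adjusted p = 0.837) did not pass. Between controls, the second line shNC libraries had 26 of the 30 genes lower than the SK-N-SH shNC libraries and PPM1D higher, against 38.9% of all tested genes lower and 40.7% higher, and the median log2 fold of the 30 genes was -1.78. CDKN1A was 132-fold lower in second line shNC than in SK-N-SH shNC.

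Since the libraries resembled each other across the labels, the groups were also set against each other across the lines. These comparisons share libraries with those within the lines and are given side by side only. Between SK-N-SH shL5 and second line shNC, 1 of the 30 genes was called, against 2.26% of all tested genes called higher and 3.12% called lower. It was CDKN1A, at 3.84 ± 0.164 FPKM in SK-N-SH shL5 and 2.23 ± 0.1799 in second line shNC, 1.72-fold higher (log2 fold 0.58, SE 0.14, limma adjusted p = 0.0316). That call was lost when any 1 of the 6 libraries was left out, with adjusted p between 0.0657 and 0.107. The 0 genes called lower by limma compare with 1 gene at an unadjusted p under 0.05, and limma voom on recovered reads, an alternative added after seeing the data, also called 0. DDB2 (log2 fold 0.26, SE 0.08) did not pass, with limma adjusted p = 0.0836, but did without second line shL5 replicate 3 (limma adjusted p = 0.0245). The median log2 fold of the 30 genes was 0.02, against 0 over all tested genes.

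Between second line shL5 and SK-N-SH shNC, 5 genes were higher and 9 lower, against 26.9% of all tested genes called higher and 17.2% lower. None of the 14 reached 2-fold on the log2(FPKM + 1) scale, whereas 2.49% of all tested genes were called and did. AEN was 1.49-fold higher in second line shL5, at 15.6, 15.7 and 16.8 FPKM, against 9.76, 12.3 and 10.3 in SK-N-SH shNC (log2 fold 0.54, SE 0.08, limma adjusted p = 0.000311). TNFRSF10B was 1.34-fold higher, and ASCC3, TRIAP1 and RRM2B were higher by 0.31, 0.19 and 0.17 on the log2 scale. On the lower side PLK2 differed most on the log2(FPKM + 1) scale and was 1.83-fold lower by group means, with 39.7, 27.8 and 30.7 FPKM in second line shL5 and 62.6, 54.6 and 62.4 in SK-N-SH shNC, which did not overlap (log2 fold -0.86, SE 0.11, limma adjusted p = 9.76e-05). TP53INP1 was 1.87-fold lower (limma adjusted p = 0.000189), and CCNG1, MDM2, PMAIP1, SESN1, PLK3, BBC3 and XPC were lower by 0.22 to 0.38 on the log2 scale. The libraries of MDM2 and of BBC3 overlapped, and both calls were lost without SK-N-SH shNC replicate 2 or 3 or second line shL5 replicate 1 or 2 (limma adjusted p = 0.0792 to 0.128). The call of RRM2B was lost without SK-N-SH shNC replicate 1 (limma adjusted p = 0.0507), and BTG2, GDF15 and TP53I3 were then called lower. CDKN1A did not pass, at 332 ± 11.996 FPKM in second line shL5 and 295 ± 70.9 in SK-N-SH shNC (SD, n = 3 each), but did without SK-N-SH shNC replicate 2, at a log2 fold of 0.35 (limma adjusted p = 0.0386).

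**Figure D3:**
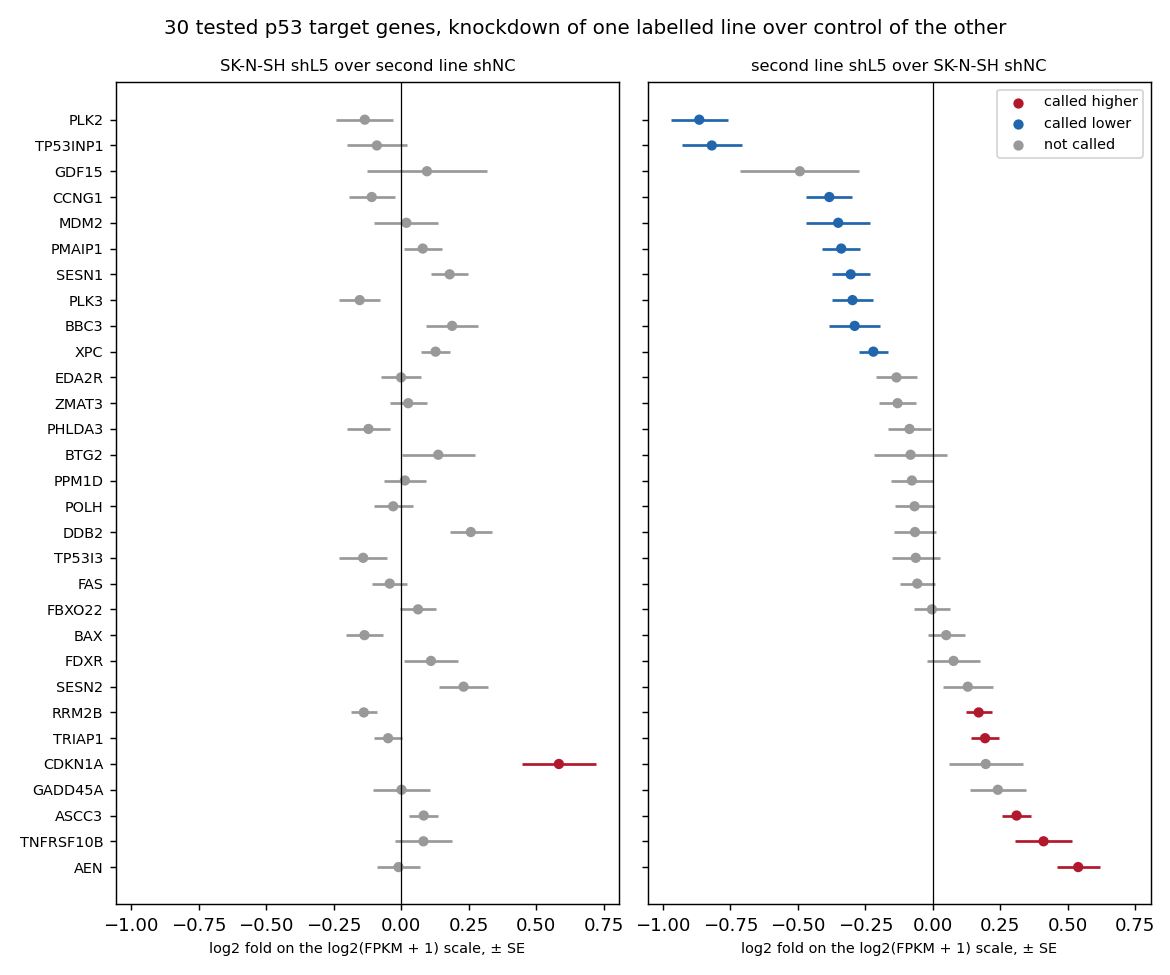
Log2 fold on the log2(FPKM + 1) scale, with its standard error, for the 30 tested genes between shL5 of one labelled line and shNC of the other. On the left, SK-N-SH shL5 over second line shNC, only CDKN1A is called, at 0.58; on the right, second line shL5 over SK-N-SH shNC, the folds run from -0.86 for PLK2 to 0.54 for AEN.

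The targets also varied together within a group. In SK-N-SH shNC, replicate 1 was the lowest of the 3 libraries for 23 of the 30 genes, against 29.8% of all tested genes, and replicate 2 the highest for 21 of them, against 31.5%. The median deviation of the 30 genes from the group mean was -0.12 in replicate 1, 0.11 in replicate 2 and 0.03 in replicate 3 on the log2(FPKM + 1) scale. CDKN1A, for example, differed 1.64-fold between replicates 1 and 2, and BTG2 1.62-fold. Medians over all tested genes were -0.01 to 0.01 in these 3 libraries. The cause of this spread was not tested.

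**Figure D4:**
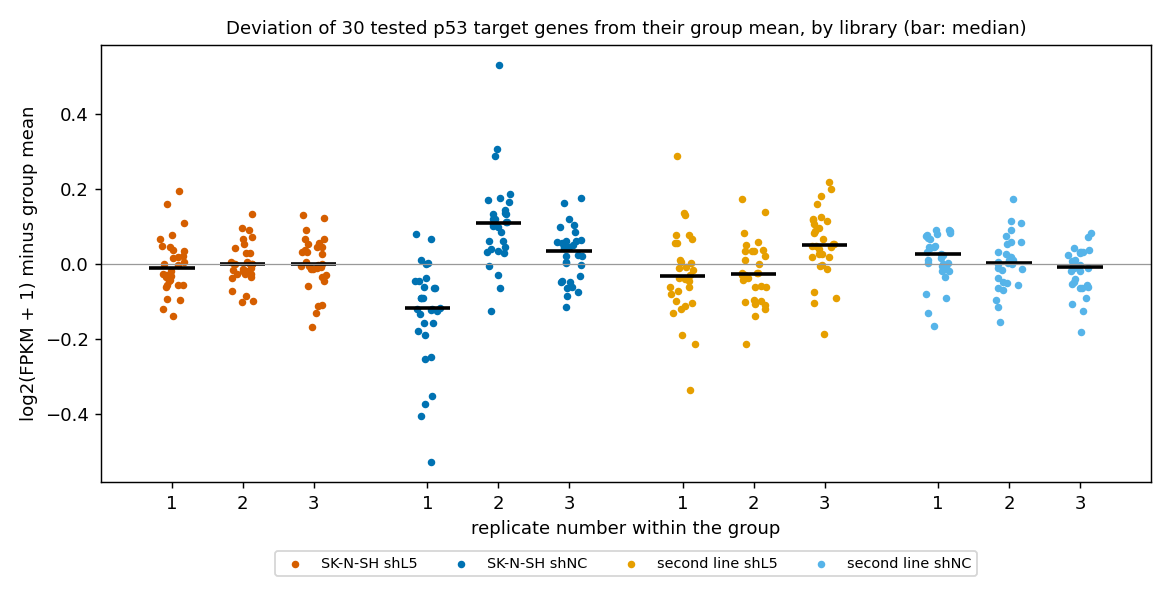
Deviation of each of the 30 tested genes from its group mean on the log2(FPKM + 1) scale, by library, with the median as a bar. The SK-N-SH shNC libraries spread most, with medians of -0.12, 0.11 and 0.03.

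Of the p53 relatives, TP63 had at most 0.00855 FPKM in any library and TP73 at most 1.16 FPKM. MDM4, the partner of MDM2, stood at 4.005 ± 0.400 FPKM in SK-N-SH shL5 and 5.35 ± 0.460 in shNC, a log2 fold of -0.34 (limma adjusted p = 0.00258), and was not called in the second line at 4.44 ± 0.232 in shL5 and 4.57 ± 0.530 in shNC. Of 30 tested regulators and relatives of p53, 19 were higher and 5 lower in SK-N-SH shL5, and 8 were higher and 18 lower in second line shL5. Of all tested genes, 40.7% were called higher and 39.0% lower in SK-N-SH shL5, and 39.9% higher and 40.2% lower in second line shL5. CDKN2A, which encodes the MDM2 inhibitor ARF beside p16, was among the lower ones in SK-N-SH shL5, at 2.70 ± 0.485 against 11.4 ± 0.724 FPKM in shNC, and higher in second line shL5, at 12.3 ± 1.41 against 3.15 ± 0.172 FPKM. The checkpoint kinase gene CHEK1 was the largest difference the other way, 6.48-fold higher in SK-N-SH shL5 and 6.01-fold lower in second line shL5. HIPK2, a kinase of p53, was 1.79-fold higher in second line shL5 and was not called in SK-N-SH (limma adjusted p = 0.949).

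A further 42 p53 targets, 33 of them tested, ran like the list itself: 28 fell and 3 rose in SK-N-SH shL5, and 26 rose and 4 fell in second line shL5, with median log2 folds of -1.13 and 1.44, against 39.0% of all tested genes lower and 40.7% higher in SK-N-SH shL5 and 39.9% higher and 40.2% lower in second line shL5. THBS1, a matrix glycoprotein that is also known as a mesenchymal gene, was 18.5-fold lower in SK-N-SH shL5 and 62.4-fold higher in second line shL5. FUCA1, a lysosomal fucosidase, was 27.0-fold lower in SK-N-SH shL5 and 53.4-fold higher in second line shL5. PANK1, a kinase of coenzyme A synthesis, ran the other way, 2.997-fold higher and 2.50-fold lower. Genes that p53 is known to lower through p21 and the DREAM repressor complex, which are genes of S phase and mitosis, were all higher in SK-N-SH shL5 (24 of 24 tested), against 40.7% of all tested genes, and 20 of the 24 were lower in second line shL5, against 40.2%. E2F1, a driver of S phase entry, stood at 70.7 ± 4.63 FPKM in SK-N-SH shL5 and 7.33 ± 1.64 in shNC, and at 13.8 ± 1.97 in second line shL5 and 78.0 ± 2.95 in shNC. MYBL2, a mitotic transcription factor, was 4.77-fold higher and 4.40-fold lower. Of 21 genes of SUMO conjugation, a modification that RanBP2 is known to promote, 16 were higher and 4 lower in SK-N-SH shL5, and 5 were higher and 11 lower in second line shL5. Over all tested genes the shares were 40.7% higher and 39.0% lower in SK-N-SH shL5, and 39.9% higher and 40.2% lower in second line shL5. G3BP1 was 1.88-fold higher in SK-N-SH shL5 and 1.38-fold lower in second line shL5, and RANBP2 was 1.79-fold higher in SK-N-SH shL5 and 2.05-fold lower in second line shL5. PIAS3, a SUMO ligase, was 6.14-fold lower in SK-N-SH shL5 and 6.87-fold higher in second line shL5. Between SK-N-SH shL5 and second line shNC, CASP6, an executioner caspase, was the only 1 of the 33 tested further targets called, at 4.28 ± 0.232 and 2.83 ± 0.274 FPKM (limma adjusted p = 0.00691). In that comparison 2.26% of all tested genes were called higher and 3.12% lower. Noradrenergic, mesenchymal and MYCN levels moved with each of these lists, as given above, and their part was not tested.

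**Figure D5:**
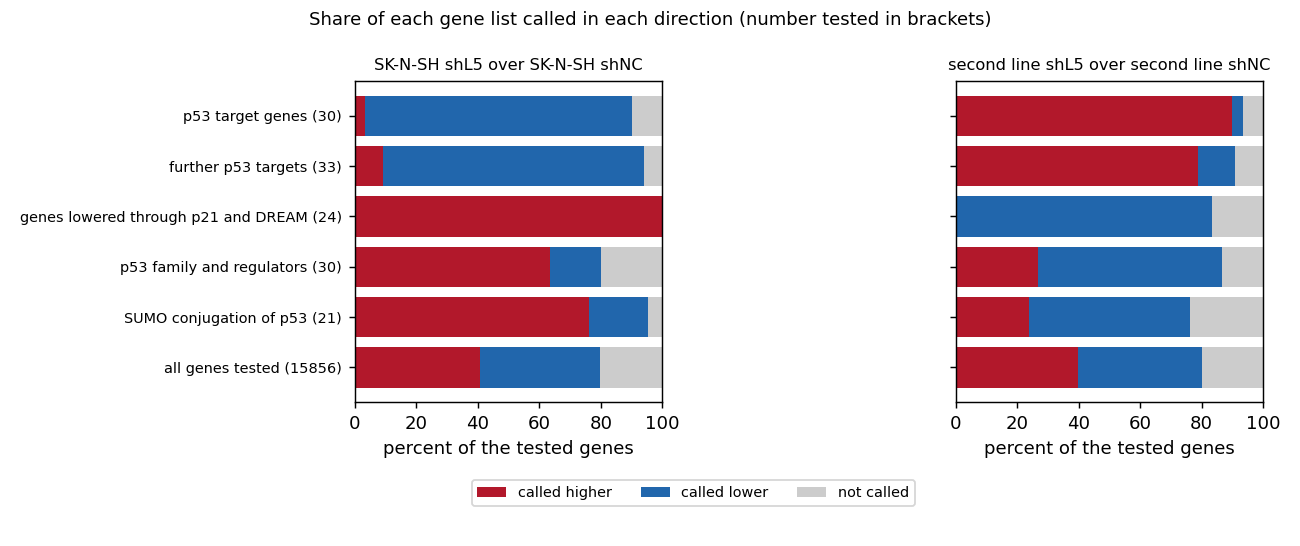
Percent of the tested genes of each list called higher or lower in shL5 than in shNC, in SK-N-SH (left) and in the second line (right), with all 15856 tested genes at the bottom. The p53 targets and further p53 targets are mostly lower in SK-N-SH shL5 and higher in second line shL5, and the genes lowered through p21 and DREAM run the other way.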

How the data were processed

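Total RNA of 12 libraries was sequenced from 3 µg of input with a NEBNext Ultra kit, per the labels' protocols. HISAT2 2.0.5 and featureCounts 1.5.0-p3 are named, with the genome build mm10, per the submitters' processing notes. The table deposited by the authors holds FPKM per gene and library. Start and end of all 58735 genes equal those of GENCODE 29 on GRCh38, which is used for coordinates, and the mm10 entry is not. FPKM times gene length gave whole reads in all libraries within a tolerance of 0.05, which came to 15425460 to 19249018 reads per library, and the FPKM denominators were in proportion to median-of-ratios size factors. No source used here gives the strand setting of the counting, and 9 of the 33 genes overlap an opposite-strand gene with a level above 0.1 of their own. 0 columns of the table belonged to no sample.

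Groups came from the sample titles. log2(FPKM + 1) of the 15856 genes with a mean of at least 0.5 FPKM was fitted with limma 3.58.1 in R 4.3.3, with 4 group means over all 12 libraries, an intensity trend, two-sided p-values and Benjamini-Hochberg adjustment over all tested genes (threshold 0.05). This scale understates the change of low genes, so each fold is a ratio of group mean FPKM values unless called a log2 fold. The steps were tested on simulated libraries in which 200 genes were changed and the dispersion, the spread beyond counting error, was 0.01. More genes than that were called in each comparison of these data, so the rates given next belong to the simulation. For SK-N-SH shL5 over second line shNC, 0% of 1.25-fold, 32.6% of 1.5-fold and 87.2% of 2-fold changes were recovered, so small differences can be missed. False calls made up 6.42% of the calls there and 8.70% for second line shL5 over SK-N-SH shNC. In the comparisons within the lines and between the controls they made up 2.78% to 3.39%. All 33 genes may be named. Those at least 2-fold apart within a line on the log2(FPKM + 1) scale are given for every library. MDM4, TSPYL5 and MYCN are named whatever their result, and of other lists up to 3 genes per direction with the largest log2 fold. Some genes that these rules would name are not reported here. TP63 and TP73, AEN, TP53I3 and DDB2 across the lines, opposite-strand genes, and G3BP1 of the study's title were added to these after their values were seen. The genes, the other lists and the motif settings were chosen with earlier results of these data known. Promoter windows are from RefSeq (GRCh38.p14), and places within genes from GENCODE 29. The replicate numbers of the titles did not pair the samples, since same-numbered libraries deviated together at correlations of only -0.0751 to 0.102. Alternatives were another pseudocount (0.1), no filter or a minimum mean of 2 FPKM, scaling to total reads, fitting only the groups compared, a replicate block, leaving out each library, and limma voom on the recovered reads, which was added after seeing the data.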

Additional observations from a re-analysis of the deposited data

Results flagged for a closer look

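For 28 of the 30 tested p53 targets, and for MDM4, TSPYL5 and MYCN, the effect of shL5 over shNC differed between the lines by the test of the difference itself (limma, Benjamini-Hochberg adjusted p under 0.05). Each value is the effect in the second line less that in SK-N-SH, as log2(FPKM + 1), and 84.9% of all tested genes passed the same test. With groups that resembled each other across the labels, this test largely repeats the opposite folds within the lines and is no separate support.

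The largest differences were those of CDKN1A at 12.59, PHLDA3 at 11.09, PLK2 at 8.92, TNFRSF10B at 8.81 and EDA2R at 7.71. GDF15 differed by 6.17, FDXR by 6.08, FAS by 5.79, RRM2B by 4.98, BTG2 by 4.92 and BBC3 by 4.16. BAX differed by 3.88, XPC by 3.78, TP53INP1 by 3.63, ZMAT3 by 3.63 and PLK3 by 3.27. DDB2 differed by 2.76, GADD45A by 2.75, PMAIP1 by 2.62, SESN2 by 2.62 and MDM2 by 2.43. Smaller differences were those of SESN1 at 1.40, CCNG1 at 1.31, TRIAP1 at 1.22, ASCC3 at 1.001, POLH at 0.77 and AEN at 0.57. PPM1D differed in the other direction, by -0.97.

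Outside the list, MDM4 differed by 0.31 (limma adjusted p = 0.0268), a call that was lost when scaled to total reads and when any 1 of 7 of the 12 libraries was left out (limma adjusted p = 0.0513 to 0.356). TSPYL5, the gene named as the target of the hairpin, differed by -1.34, and MYCN by -19.97. Whether the labels of any library are right was not tested.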

How the results depend on the processing

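Within the lines and between the controls, the counts of p53 targets called moved little. With each library left out in turn, 26 to 27 were lower and 1 higher in SK-N-SH shL5 than in SK-N-SH shNC, and 27 were higher and 1 lower in second line shL5 than in second line shNC. The other alternatives run gave 26 lower in SK-N-SH shL5 and 27 to 29 higher in second line shL5. With no filter on low values, the counts that were 1 became 2: higher in SK-N-SH shL5, lower in second line shL5, higher in second line shNC than in SK-N-SH shNC, and more negative in the difference of effects. Scaled to total reads, which moved the median log2 fold of all tested genes by -0.12 in the second line and by -0.16 in the difference of effects, 2 were lower in second line shL5.

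Across the lines the calls were less stable. The single target higher in SK-N-SH shL5 than in second line shNC became 0 with no filter and 0 with limma voom, 2 when only the groups compared were fitted, and 0 to 2 with a library left out. Between second line shL5 and SK-N-SH shNC, 3 rather than 5 were higher when scaled to total reads, and leaving out a library gave 4 to 7 higher and 7 to 12 lower. The replicate numbers did not pair the samples, and fitting them as a replicate block gave 6 rather than 5 targets higher in second line shL5 than in SK-N-SH shNC and moved no other count. Cause was not tested for any of these. The deposited values are FPKM, and limma voom was the only count model run on the recovered reads. edgeR, DESeq2 and TMM scaling were not run. Depth limits PERP, SPATA18, TIGAR and the low groups of FAS, EDA2R, GDF15 and PHLDA3. In SK-N-SH shL5 and second line shNC, GDF15 had 47 and 37 reads and PHLDA3 had 52 and 69.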
